A study of Homo sapiens with 24 samples.

Results

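Glioma cells of the grade IV line LN18 given both epigallocatechin-3-gallate and hydroxychavicol (EGCG+HC) were compared with LN18 cells given EGCG alone, which asks what HC adds when EGCG is present. The comparison takes the 3 EGCG+HC and the 3 EGCG libraries, which make up 6 of the 24 libraries of the series, joined by gene symbol. EGCG is the main catechin of green tea, and HC is a phenol of betel leaf. EGCG+HC cells received 50 µg/ml EGCG with 10 µg/ml HC, EGCG cells 50 µg/ml EGCG, HC cells 10 µg/ml HC and control cells the vehicle, 0.1% ethanol, each for 24 h. HC was dissolved in ethanol and EGCG in medium, and whether EGCG cells also received ethanol is not given in the sources used here, so that HC and its solvent cannot be told apart. The rest of the series is a second line, 1321N1, under the same 4 kinds of treatment, for which the authors used a higher dose of HC. LN18 is a single established line, so the libraries of a group, numbered as replicates, are repeats on the same cells. The sample titles do not say whether they are separate treatments.

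EGCG and HC are phenols that oxidise readily in culture medium, and both are known as sources of reactive oxygen. Cells meet oxidants and reactive phenols with the transcription factor NRF2, which drives genes of glutathione and haem turnover. Misfolded proteins in the endoplasmic reticulum (ER) trigger the unfolded protein response, in which XBP1, ATF6 and the PERK to ATF4 arm raise chaperones, amino acid supply and, under lasting stress, the death factor CHOP (DDIT3). Proliferating glioma cells also depend on sterol synthesis under the factor SREBP2 and on the mitotic genes switched on late in the cell cycle.

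The values are RPKM as the authors deposited them, that is reads scaled to the length of the gene and to the depth of the library. From the steps between low values, EGCG+HC libraries held about 16.04 to 20.5 M counted reads and EGCG libraries about 20.8 to 26.1 M (M for mega). Across 13770 genes, log2 values correlated at 0.9938 to 0.995 between libraries of 1 group and at 0.8903 to 0.8938 between the groups, as a description. Genes of the mitochondrial genome took 9.02 ± 0.228% of the RPKM in EGCG+HC libraries and 7.42 ± 0.182% in EGCG libraries (SD, n = 3 each). Of the astroglial and stem cell markers, 11 of 13 were in the tables. VIM, CD44 and SLC1A3 were expressed, while GFAP averaged 0.122 RPKM in EGCG+HC cells and 0.182 RPKM in EGCG cells and NES 0.131 RPKM in EGCG+HC cells and 0.109 RPKM in EGCG cells. SOX2 was listed at 0 in EGCG+HC cells, and the label of a glioma line rests on few of these markers. The summed level of this list was 258 to 261 RPKM in EGCG+HC libraries, against 358 to 360.4 RPKM in EGCG libraries. Nearly all of it was VIM and CD44, which averaged 171 and 77.0 RPKM in EGCG+HC cells, against 234 and 117 RPKM in EGCG cells. SLC1A3 and SOX9 went the other way, with 7.38 and 3.27 RPKM in EGCG+HC cells, against 5.50 and 2.51 RPKM in EGCG cells. Neuronal markers summed to 1.65 to 2.24 RPKM in EGCG+HC libraries and 1.07 to 1.28 RPKM in EGCG libraries. Endothelial ones summed to 0.680 to 0.848 RPKM in EGCG+HC libraries and 0.557 to 0.636 RPKM in EGCG libraries. Those of microglia and blood summed to 43.0 to 46.4 RPKM in EGCG+HC libraries and 53.7 to 56.8 RPKM in EGCG libraries. Among them CD68, HBA1 and HBA2 averaged 27.9, 4.59 and 1.17 RPKM in EGCG+HC cells, against 41.8, 7.41 and 1.49 RPKM in EGCG cells. CSF1R and CD14 were higher, with 6.95 and 3.15 RPKM in EGCG+HC cells, against 4.49 and 0.255 RPKM in EGCG cells. Epithelial markers summed to 58.7 to 60.8 RPKM in EGCG+HC libraries and to 124 to 131 RPKM in EGCG libraries, nearly all of it the keratins KRT8 and KRT18, with EPCAM and CDH1 under 1 RPKM. The part of these markers in the results below was not tested.

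Adding HC to EGCG moved a large part of the transcriptome, and in both directions. More members rose than fell among immediate early genes (21 and 1 of 30) and genes of the integrated stress response (11 and 2 of 25), and more fell than rose among genes of mitosis (43 and 0 of 48), sterol synthesis (24 and 0 of 32) and the actin cytoskeleton (21 and 1 of 36). A gene passed the threshold at an adjusted p of at most 0.05 in limma and a fold change of at least 1.5 on the log2(RPKM + 1) scale, which understates the change of genes near or under 1 RPKM. The test covered the 13770 genes whose mean reached 1 RPKM, of which 5097 (37.0%) passed, 2687 (19.5%) higher and 2410 (17.5%) lower in EGCG+HC cells, and the median gene stood at -0.012. The libraries of the groups did not overlap for 11548 genes (83.9%), so that non-overlap alone says little of any 1 gene. The p-values measure the spread between the numbered libraries of a group, which was small, and 11335 genes had an adjusted p of at most 0.05 at any fold. Fewer cells of a kind and less RNA per cell cannot be told apart in these bulk libraries.

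Among genes that reached 10 RPKM in the higher group, leaving out clone names, pseudogenes and genes whose libraries overlapped between the groups, the highest log2 fold change was that of IL8 (CXCL8), a chemokine that attracts neutrophils. It was measured at 73.3, 75.1 and 75.5 RPKM in EGCG+HC cells, against 4.11, 4.22 and 4.48 RPKM in EGCG cells. All 3 EGCG+HC libraries lay far above all EGCG libraries, 17.5-fold in the means (log2 fold change 3.84 ± 0.032 (SE), adjusted p = 6.9e-09). HMOX1, the haem oxygenase that opens the haem ring, was another of the 12 largest rises chosen in this way. Its levels were 239, 229.8 and 229.6 RPKM in EGCG+HC cells, against 19.1, 19.04 and 19.8 RPKM in EGCG cells. Again no EGCG library came near the lowest EGCG+HC library, and the means differed 12.1-fold (log2 fold change 3.52 ± 0.025 (SE), adjusted p = 4.8e-09). The other large rises started from low levels in EGCG cells. CDKL3, PLA2G10, KLRG2 and C15orf60 averaged under 1 RPKM there and reached the mean of 1 RPKM through EGCG+HC cells. The EGCG+HC values list 29449 names and the EGCG values 26303, and the part of this in the rises was not tested. CDKL3, a kinase gene, stood at 14.0, 13.7 and 14.6 RPKM in EGCG+HC cells, against 0.468, 0.750 and 0.384 RPKM in EGCG cells, and PLA2G10, a secreted phospholipase, at 11.8, 12.7 and 10.8 RPKM in EGCG+HC cells, against 0.585, 0.448 and 0.438 RPKM in EGCG cells. KLRG2, PLAC8L1, C15orf60 and FAM209A rose in the same way, with log2 fold changes of 2.92, 3.21, 3.08 and 2.81. SLC7A11-AS1 and ZRANB2-AS1 (log2 fold changes 3.17 and 3.02) are antisense RNAs, and EEF1E1-BLOC1S5 and RPL17-C18orf32 (2.79 and 2.98) are readthrough names that share exons with their neighbours. The library kit does not keep the strand, so reads of such genes and of those they overlap cannot be told apart.

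Among the falls, chosen in the same way, CPA4, a secreted carboxypeptidase, had 6.60, 6.65 and 6.52 RPKM in EGCG+HC cells, against 69.5, 70.3 and 68.3 RPKM in EGCG cells. Its EGCG+HC libraries were alike and about 10 times under the EGCG libraries (log2 fold change -3.21 ± 0.022 (SE), adjusted p = 4.8e-09). DIO2, the deiodinase that activates thyroid hormone, followed at 22.2, 23.3 and 23.2 RPKM in EGCG+HC cells, against 169, 167 and 168 RPKM in EGCG cells (log2 fold change -2.82 ± 0.024 (SE), adjusted p = 6.9e-09). TGFB2, a growth factor that gliomas secrete, had 2.44, 2.72 and 2.35 RPKM in EGCG+HC cells, against 23.9, 23.1 and 23.5 RPKM in EGCG cells (log2 fold change -2.81 ± 0.045 (SE), adjusted p = 3e-08). TGFB2 was about 9 times lower in EGCG+HC cells. GBP1, an interferon-induced GTPase, and PRSS23, a secreted protease, had log2 fold changes of -2.30 and -2.30, and CDC42EP3, an effector of the GTPase CDC42, had a log2 fold change of -2.37. The other 6 of the 12 largest falls, F3, HMGCS1 and the mitotic CDC25B, KIF20A, KIF2C and PLK1, are given with their groups. The plot of 16 genes by library shows how narrow the groups were.

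**Figure D1:**
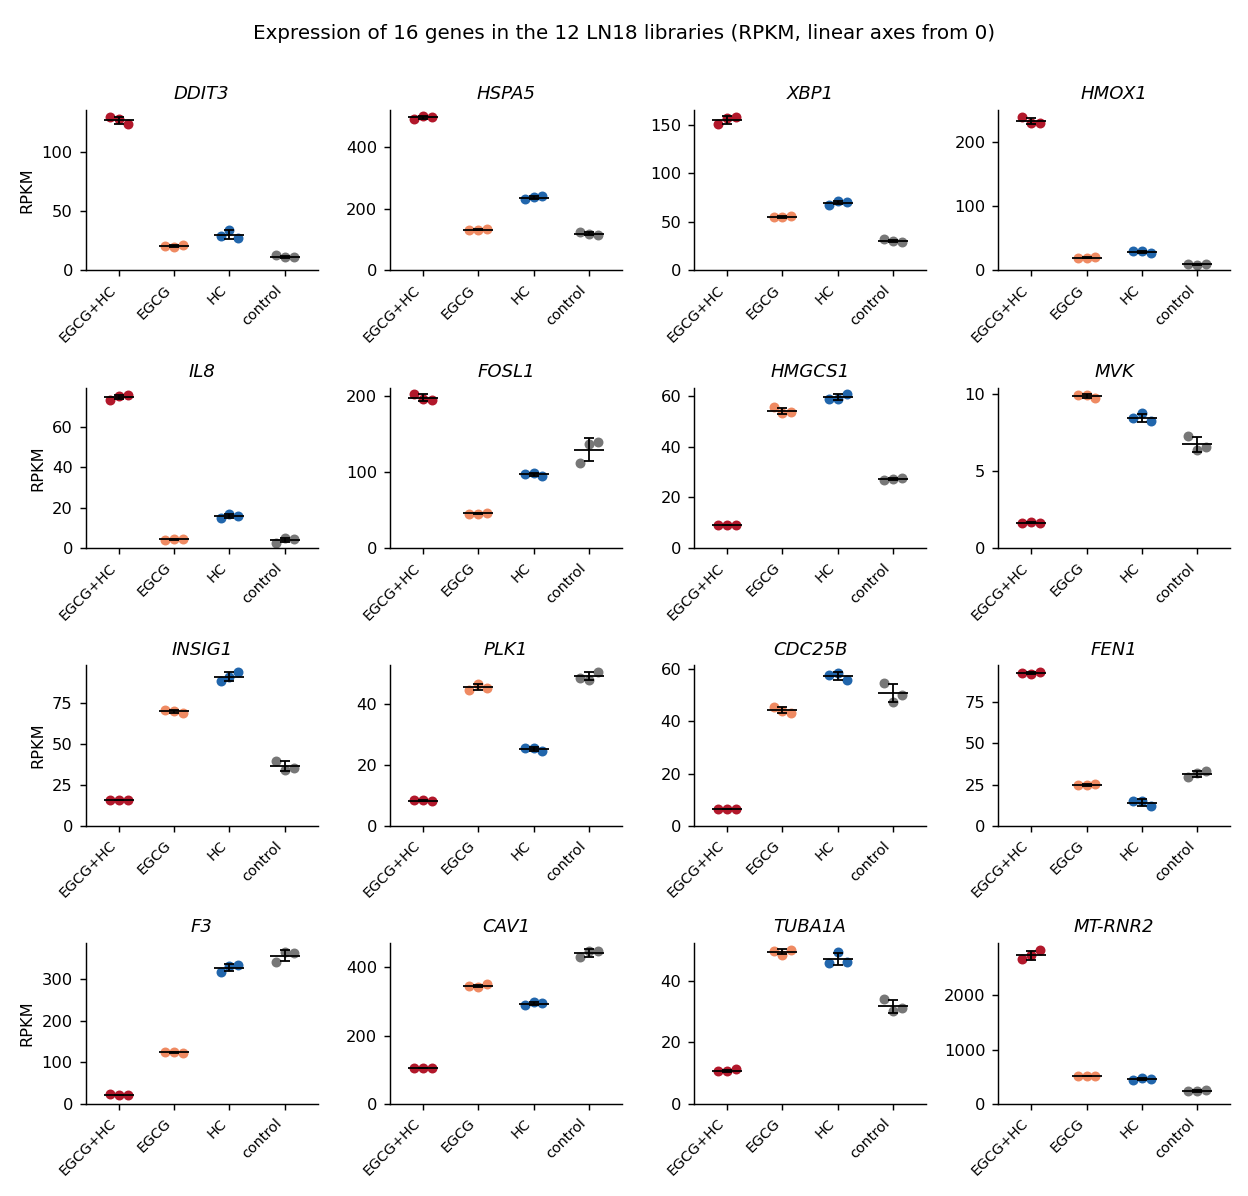
RPKM of 16 genes in the 12 LN18 libraries on linear axes from 0, with EGCG+HC, EGCG, HC and control libraries from left to right, points for libraries and black bars for mean ± SD (n = 3). DDIT3, HSPA5, XBP1, HMOX1, IL8, FOSL1, FEN1 and MT-RNR2 lie above all other groups in EGCG+HC cells, and HMGCS1, MVK, INSIG1, PLK1, CDC25B, F3, CAV1 and TUBA1A below all of them.

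Seen by gene list, the shares past the threshold ran from none to nearly all members. All counts by list for EGCG+HC against EGCG stand against 19.5% higher and 17.5% lower of all tested genes. Mitosis had the highest share of falls (43 of 48) and the list of immediate early and MAPK feedback genes the highest share of rises (21 of 30) among lists with at least 5 tested members. At the other end, 0 of 47 ribosomal protein genes passed in either direction in limma, although 44 of them had an unadjusted p under 0.05 with a positive and 2 with a negative fold change.

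**Figure D2:**
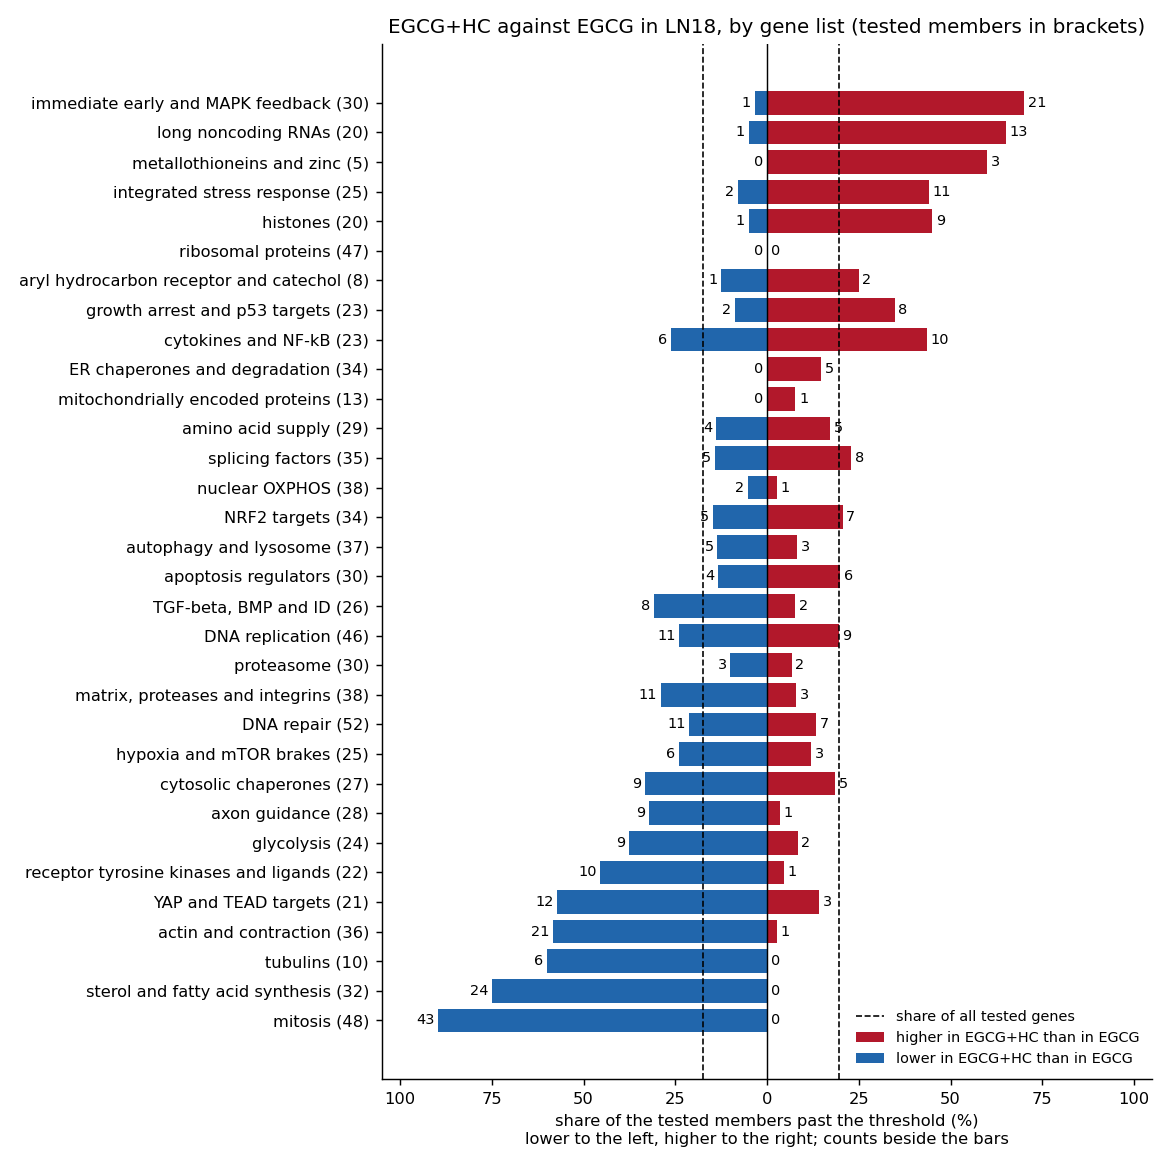
Share of the tested members of each gene list that were lower (left) or higher (right) in EGCG+HC than in EGCG cells past the threshold, in percent, ordered by the list's median log2 fold change, with counts beside the bars. The dashed lines give the shares of all tested genes, 17.5% lower and 19.5% higher, and among these lists, each with at least 5 tested members, mitosis with 43 falls and immediate early genes with 21 rises extend furthest.

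The integrated stress response stops general translation through phosphorylated eIF2 and favours that of ATF4. Of its 25 tested members 11 rose and 2 fell, against 19.5% and 17.5% of all genes, and the list's median log2 fold change was 0.58, against -0.012 over all genes. DDIT3, which encodes CHOP, was measured at 129, 127 and 124 RPKM in EGCG+HC cells, against 20.1, 19.4 and 21.0 RPKM in EGCG cells. The EGCG+HC libraries formed a tight group 6.29 times higher in the mean (log2 fold change 2.60 ± 0.033 (SE), adjusted p = 1.6e-08). SESN2, a stress sestrin that restrains mTOR, had 77.4, 75.8 and 75.3 RPKM in EGCG+HC cells, against 12.9, 13.5 and 12.6 RPKM in EGCG cells (log2 fold change 2.46 ± 0.028 (SE), adjusted p = 1.1e-08). PPP1R15A, the phosphatase subunit GADD34 that reverses eIF2 phosphorylation, had 204, 193 and 195 RPKM in EGCG+HC cells, against 39.5, 39.9 and 39.8 RPKM in EGCG cells (log2 fold change 2.28 ± 0.025 (SE), adjusted p = 1e-08). For both the lowest EGCG+HC library was several times the highest EGCG library. ATF3, a stress factor downstream of ATF4, stood at 26.7, 28.1 and 27.1 RPKM in EGCG+HC cells, against 7.52, 7.68 and 7.53 RPKM in EGCG cells (log2 fold change 1.72 ± 0.028 (SE), adjusted p = 3e-08). ATF4 itself moved less, with 403, 399.8 and 393 RPKM in EGCG+HC cells, against 239, 239 and 244 RPKM in EGCG cells. The groups were apart, but the log2 fold change was 0.73 and came to 0.487, under the threshold, with quantile normalization. The other rises were GDF15, CHAC1, TRIB3, CEBPG, STC2 and the kinase EIF2AK3 (PERK), with log2 fold changes of 1.09, 1.10, 1.31, 1.43, 1.49 and 1.14. The members that fell were ATF5, at -1.69, a further ATF factor that stress induces, and EIF2AK4 (GCN2), the amino acid sensor, at -0.74.

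Of 29 tested genes of amino acid supply, many of them ATF4 targets, 5 rose and 4 fell, shares at or under those of all genes (19.5% and 17.5%), with a median of 0.155. CTH, which makes cysteine, had 71.6, 71.4 and 72.0 RPKM in EGCG+HC cells, against 22.6, 22.8 and 23.6 RPKM in EGCG cells (log2 fold change 1.60 ± 0.022 (SE), adjusted p = 2.3e-08), with every EGCG+HC library about 3 times the EGCG level. GARS, the glycyl-tRNA synthetase, averaged 275 ± 3.16 RPKM in EGCG+HC cells and 131 ± 1.37 RPKM in EGCG cells, and ASNS, asparagine synthetase, 109 ± 2.39 RPKM in EGCG+HC cells and 59.2 ± 1.87 RPKM in EGCG cells (SD, n = 3 each). PSPH and SLC7A5 were the other rises (0.65 and 0.68). SLC7A1, an arginine transporter, MARS, AARS and CBS were the falls, at -0.73, -0.73, -0.65 and -0.70. When log2 values were centred by the GC content of transcripts, 6 rose and 0 fell of the 18 members with a GC value, which do not include MARS, AARS and GARS.

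In the ER itself, 5 of 34 chaperone and degradation genes rose and 0 fell, against 19.5% and 17.5% of all genes, with a median of 0.30. HSPA5, the chaperone BiP, was among the most abundant of them at 490.3, 500.1 and 499 RPKM in EGCG+HC cells, against 129.8, 130.4 and 133 RPKM in EGCG cells. All EGCG+HC libraries were close to 500 RPKM and all EGCG libraries close to 130 RPKM (log2 fold change 1.91 ± 0.017 (SE), adjusted p = 7.8e-09). HERPUD1, an adaptor of ER-associated degradation, had 110.4, 111 and 109 RPKM in EGCG+HC cells, against 28.0, 26.9 and 26.8 RPKM in EGCG cells (log2 fold change 1.98 ± 0.023 (SE), adjusted p = 1.3e-08). DNAJB9, a BiP cochaperone, had 55.8, 55.4 and 57.2 RPKM in EGCG+HC cells, against 12.8, 12.4 and 13.1 RPKM in EGCG cells (log2 fold change 2.05 ± 0.026 (SE), adjusted p = 1.6e-08). Neither overlapped between the groups. XBP1, the factor activated by IRE1, stood at 151, 157 and 158 RPKM in EGCG+HC cells, against 54.7, 54.3 and 55.6 RPKM in EGCG cells (log2 fold change 1.48 ± 0.023 (SE), adjusted p = 2.9e-08). These 4 genes were 2.83 to 4.39 times higher in EGCG+HC cells, and SEC61B, a translocon subunit, reached 0.68. In contrast HSP90B1, PDIA4, CALR and HYOU1, which are induced in the same response, had log2 fold changes of 0.35, 0.46, 0.095 and 0.27, under the limit on the fold.

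The ER stress element, CCAAT and CCACG with 9 bases between them, is the promoter sequence that ATF6 and XBP1 act through, and it was searched on both strands from 250 bases before to 50 after the start sites of RefSeq (GRCh38.p14). It was found in 7 of the 29 members with a promoter sequence (24.1%), against 0.0916% of all 27305 gene symbols. The element contains the CCAAT box, which many other promoters hold. HSPA5 and XBP1 were the members with it that rose, and others with it, such as CALR and CANX, did not pass the threshold, so these 4 sites are shown together. Capitals mark the element, on the strand of the gene from 5′ to 3′.
HSPA5: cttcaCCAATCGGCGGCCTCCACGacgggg
XBP1: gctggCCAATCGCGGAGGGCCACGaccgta
CANX: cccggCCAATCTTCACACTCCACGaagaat
CALR: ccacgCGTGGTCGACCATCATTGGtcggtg
They lie at chr9:125241385-125241414 and chr22:28800597-28800626 on the minus strand and at chr5:179698773-179698802 and chr19:12938379-12938408 on the plus strand, with the first capital at position -66, -52, -9 and -225 from the start site at 0. In CALR the capitals read the element's reverse complement. A shorter element, TGATGNAA, at which ATF4 acts with C/EBP factors, was found on either strand in 5 of 20 promoters of the integrated stress response list, against 4.46% of all symbols, and in 3 of the 11 members with a promoter sequence that rose, ATF3, CEBPG and CHAC1.
ATF3: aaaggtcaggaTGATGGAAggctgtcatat
CEBPG: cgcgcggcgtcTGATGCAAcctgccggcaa
CHAC1: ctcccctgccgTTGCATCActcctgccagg
These stretches lie at chr1:212565205-212565234, chr19:33374060-33374089 and chr15:40953251-40953280, all on the plus strand, with CHAC1 again in reverse complement. A match is a description of letters in a window and no measure of binding.

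Chaperones of the cytosol had more falls than rises. Of 27 tested members 5 rose and 9 fell, against 19.5% and 17.5% of all genes, with a median of -0.29. After GC centring 5 rose and 7 fell. HSPB1, the small heat shock protein HSP27, had 19.5, 18.2 and 20.2 RPKM in EGCG+HC cells, against 68.5, 70.9 and 61.0 RPKM in EGCG cells (log2 fold change -1.74 ± 0.062 (SE), adjusted p = 4.1e-07). HSPA1A, the inducible HSP70, had 79.0, 77.0 and 75.3 RPKM in EGCG+HC cells, against 173, 181 and 168 RPKM in EGCG cells (log2 fold change -1.16 ± 0.032 (SE), adjusted p = 1.6e-07), and its reads can be split with its near-identical copy HSPA1B, which fell as well (-0.74). STIP1, which links HSP70 to HSP90, had a log2 fold change of -1.29. None of these 3 overlapped between the groups. HSPA2, a HSP70 of testis, and DNAJA4, a cochaperone, rose from low levels, with means of 3.02 RPKM in EGCG+HC cells and 0.366 RPKM in EGCG cells for HSPA2 and 2.72 RPKM in EGCG+HC cells and 0.199 RPKM in EGCG cells for DNAJA4. The other rises were ZFAND2A, DNAJB4 and BAG3 (1.12, 0.61 and 0.59).

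NRF2 targets did not move as 1 block. Of 34 tested members 7 rose and 5 fell, shares close to those of all genes, with a median of 0.036 that turned to -0.03 with quantile normalization and to -0.01 when mitochondrial genes were left out of the scaling, and came to 0.28 after GC centring. Those that rose did so strongly. Beside HMOX1, GCLM, the modifier subunit of the glutathione-making ligase, had 61.3, 63.7 and 62.9 RPKM in EGCG+HC cells, against 15.5, 15.3 and 15.4 RPKM in EGCG cells (log2 fold change 1.95 ± 0.022 (SE), adjusted p = 1.1e-08). OSGIN1, an oxidative stress growth inhibitor, had 68.8, 65.8 and 64.2 RPKM in EGCG+HC cells, against 18.5, 19.1 and 19.2 RPKM in EGCG cells (log2 fold change 1.75 ± 0.031 (SE), adjusted p = 4.1e-08). MAFG, the small MAF partner of NRF2, averaged 40.5 ± 0.232 RPKM in EGCG+HC cells and 14.1 ± 0.788 RPKM in EGCG cells (SD, n = 3 each). The other rises were NFE2L2, which encodes NRF2, SRXN1 and FTH1, at 1.03, 1.03 and 0.91. In contrast NQO1, TXNRD1 and GCLC, which belong to the same list, stood at -0.17, -0.11 and 0.12, and AKR1B10, BLVRA, TKT, ABCC1 and EPHX1 fell (-1.14, -1.02, -0.94, -0.81 and -0.59). Aldo-keto reductase copies share sequence, so single members of that family are uncertain.

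Of the aryl hydrocarbon receptor list, 2 of 8 tested members rose and 1 fell, against 19.5% and 17.5% of all genes. CYP1A1, its classic target, had 2.89, 3.13 and 2.83 RPKM in EGCG+HC cells, against 1.10, 1.17 and 0.880 RPKM in EGCG cells (log2 fold change 0.95 ± 0.071 (SE), adjusted p = 1.4e-05), and TIPARP, a target that feeds back on the receptor, averaged 16.4 RPKM in EGCG+HC cells and 6.99 RPKM in EGCG cells. ARNT, the partner of the receptor, was the fall (-0.85). Metal response genes rose in 3 of 5 tested members. MTF1, the zinc-sensing factor, had 25.6, 24.7 and 23.97 RPKM in EGCG+HC cells, against 7.41, 7.22 and 7.54 RPKM in EGCG cells (log2 fold change 1.62 ± 0.032 (SE), adjusted p = 5.5e-08), SLC30A1, a zinc exporter, a log2 fold change of 1.14, and MT2A, a metallothionein, one of 0.61 that came to 0.552, under the threshold, when mitochondrial genes were left out of the scaling. MT2A stood at 60.4, 56.8 and 60.6 RPKM in EGCG+HC cells, against 38.5, 39.7 and 37.4 RPKM in EGCG cells, and in cells without EGCG averaged 266 RPKM in HC cells and 227 RPKM in control cells. Metallothionein copies share reads.

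Immediate early genes and the feedback inhibitors of the MAPK cascade had 21 of 30 tested members higher and 1, DUSP1, lower (-0.86). The median was 0.82. FOSL1, an AP-1 subunit read as a late output of ERK signalling, had 203, 196 and 195 RPKM in EGCG+HC cells, against 45.3, 44.9 and 46.7 RPKM in EGCG cells. Its EGCG+HC libraries were more than 4 times the EGCG libraries (log2 fold change 2.10 ± 0.024 (SE), adjusted p = 1.2e-08). RND3, a GTPase that opposes RhoA, had 277, 278 and 282 RPKM in EGCG+HC cells, against 56.8, 56.2 and 57.4 RPKM in EGCG cells (log2 fold change 2.28 ± 0.017 (SE), adjusted p = 4.8e-09). SPRY4, a feedback inhibitor of receptor signalling, had 7.73, 7.42 and 7.54 RPKM in EGCG+HC cells, against 1.44, 1.42 and 1.39 RPKM in EGCG cells (log2 fold change 1.82 ± 0.037 (SE), adjusted p = 5.7e-08). For both the lowest EGCG+HC library was above the highest EGCG library. FOS was low in EGCG cells, with means of 3.75 RPKM in EGCG+HC cells and 0.345 RPKM in EGCG cells. MYC, a driver of growth, rose from a low level too, with 8.23, 9.77 and 9.26 RPKM in EGCG+HC cells, against 3.99, 3.69 and 3.63 RPKM in EGCG cells (log2 fold change 1.08 ± 0.064 (SE), adjusted p = 4.2e-06). Further members that rose, picked as examples after their values were seen, are DUSP6, SPRY2, EGR1 and JUN, with log2 fold changes of 1.28, 1.59, 1.499 and 1.10.

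Among cytokine and NF-kB genes 10 of 23 tested rose and 6 fell (median 0.30), with 10 and 3 of 22 after GC centring. After IL8, the chemokines CXCL3 and CXCL2 rose from means under 0.3 RPKM in EGCG cells. CXCL3 had 2.02, 2.29 and 2.86 RPKM in EGCG+HC cells, against 0.173, 0.265 and 0.198 RPKM in EGCG cells, and CXCL2 had 2.53, 2.56 and 2.40 RPKM in EGCG+HC cells, against 0.357, 0.242 and 0.293 RPKM in EGCG cells. Both were thus far below IL8 in every library. The falls were led by IL7R, the receptor chain of interleukin 7, at 6.88, 7.30 and 6.999 RPKM in EGCG+HC cells, against 37.03, 37.01 and 37.8 RPKM in EGCG cells (log2 fold change -2.25 ± 0.028 (SE), adjusted p = 1.5e-08). TNFAIP3, IL6, LIF and CSF2 were further rises, at 1.25, 1.15, 1.10 and 1.08, and TNFAIP2, NFKB2 and CCL2 further falls, at -1.17, -0.73 and -0.67.

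Sterol and fatty acid synthesis fell as a group. Of 32 tested members 0 rose and 24 fell, 31 of the 32 had a negative log2 fold change, and the median was -1.15. HMGCS1, which makes the HMG-CoA of the mevalonate pathway, had 8.97, 8.92 and 8.94 RPKM in EGCG+HC cells, against 55.4, 53.1 and 53.7 RPKM in EGCG cells. The EGCG+HC libraries agreed to within 0.1 RPKM and lay about 6 times below the EGCG libraries (log2 fold change -2.47 ± 0.023 (SE), adjusted p = 8.8e-09). INSIG1, the sterol-regulated anchor that holds SREBP in the ER, had 15.8, 16.04 and 15.99 RPKM in EGCG+HC cells, against 70.8, 70.1 and 68.8 RPKM in EGCG cells (log2 fold change -2.06 ± 0.020 (SE), adjusted p = 9.3e-09). MVK, mevalonate kinase, had 1.60, 1.66 and 1.65 RPKM in EGCG+HC cells, against 9.95, 9.98 and 9.75 RPKM in EGCG cells (log2 fold change -2.05 ± 0.034 (SE), adjusted p = 3.3e-08). All 3 genes were 4 to 6 times lower with HC added, with no overlap. In the later steps to cholesterol DHCR7, FDFT1, CYP51A1 and IDI1 fell with log2 fold changes of -1.82, -1.75, -1.58 and -1.57, and in fatty acid synthesis FASN, ACLY and SCD had -1.17, -1.15 and -0.76. SQLE, squalene epoxidase, came to -0.45, under the limit on the fold, and ELOVL6 was the member above 0 (0.086). SREBF2, the factor in control of the pathway, had a log2 fold change of -0.81. The sterol regulatory element TCACNCCAC, searched on both strands, was found in 1 of the 26 members with a promoter sequence (3.85%), SREBF2 itself, and in 1.39% of all symbols.

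The same dose of HC alone did the reverse for many of these genes. Against control cells 15 of 32 rose and 0 fell (median 0.57), against 9.48% and 2.26% of all genes. In the libraries without EGCG, HMGCS1 had 58.9, 58.8 and 60.7 RPKM in HC cells, against 26.8, 27.2 and 27.8 RPKM in control cells, and INSIG1 had 88.7, 90.9 and 94.1 RPKM in HC cells, against 39.9, 34.4 and 35.4 RPKM in control cells. HC cells thus held more of both than control cells in every library, while EGCG+HC cells held less than EGCG cells in every library. The difference of the effects of HC, tested on all 12 LN18 libraries, was -3.57 ± 0.037 (SE) for HMGCS1 (adjusted p = 2.9e-13, limma) and -3.36 ± 0.066 for INSIG1 (adjusted p = 2.7e-11). It passed the threshold in the negative direction for 28 of the 32 genes, against 23.1% of all genes. Of the 32, 12 genes were called both lower with EGCG and higher without it, against 189 of the 12717 genes tested in both comparisons. STARD4, a cholesterol carrier, showed it as well (-2.98 ± 0.071, adjusted p = 8.9e-11).

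**Figure D3:**
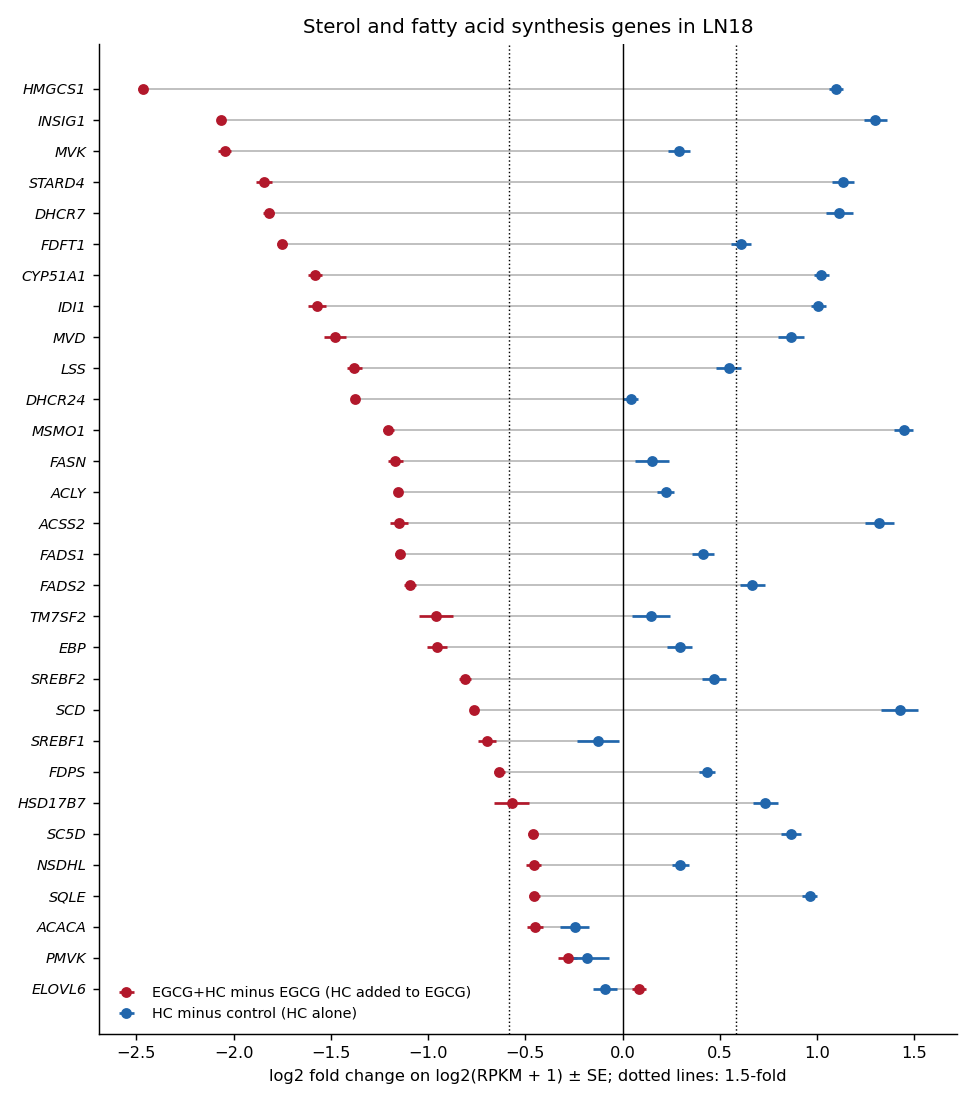
Log2 fold changes ± SE of 30 sterol and fatty acid synthesis genes on the log2(RPKM + 1) scale for EGCG+HC minus EGCG (red) and HC minus control (blue), ordered by the first, with dotted lines at 1.5-fold. Of the 30 red points 29 lie below 0, from -2.47 for HMGCS1, and most blue points above it.

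The mitotic genes fell almost without exception. Of 48 tested members 0 rose and 43 fell, against 19.5% and 17.5% of all genes. All 48 had a negative log2 fold change, and the median was -1.22. The groups did not overlap for any of the 48, nor for 83.9% of all genes. CDC25B, the phosphatase that starts mitosis, had 6.45, 6.48 and 6.35 RPKM in EGCG+HC cells, against 45.6, 44.1 and 43.1 RPKM in EGCG cells (log2 fold change -2.61 ± 0.028 (SE), adjusted p = 1e-08). PLK1, the polo kinase, had 8.43, 8.33 and 8.10 RPKM in EGCG+HC cells, against 44.5, 46.6 and 45.2 RPKM in EGCG cells (log2 fold change -2.32 ± 0.027 (SE), adjusted p = 1.2e-08). EGCG+HC cells thus held more than 5 times less of each. KIF20A, a kinesin of cytokinesis, had 7.73, 7.48 and 7.22 RPKM in EGCG+HC cells, against 46.3, 45.7 and 47.3 RPKM in EGCG cells (log2 fold change -2.48 ± 0.030 (SE), adjusted p = 1.3e-08). KIF2C, a kinesin of chromosome alignment, had 11.1, 10.47 and 10.7 RPKM in EGCG+HC cells, against 60.5, 61.0 and 63.6 RPKM in EGCG cells (log2 fold change -2.41 ± 0.031 (SE), adjusted p = 1.6e-08). TOP2A, which untangles chromosomes, CDC20, CCNB1 and AURKA had log2 fold changes of -2.13, -1.93, -1.77 and -1.59. MAD2L1, PTTG1, FOXM1, BIRC5 and SGOL1 stayed within the limit, at -0.58, -0.45, -0.43, -0.26 and -0.24. With HC alone 11 of the 48 fell and 0 rose (median -0.36), against 2.26% and 9.48% of all genes. The effect of HC was more negative with EGCG than without, past the threshold, for 38 of them, against 23.1% of all genes.

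Many mitotic promoters carry the cell cycle genes homology region (CHR), TTTGAA, at which the DREAM and MuvB complexes bind. It was found on either strand in 30 of the 40 members with a promoter sequence (75.0%), against 18.2% of all symbols, and in 29 of the 38 with a promoter sequence that fell. For each gene the match nearest the start site was kept. In some members that fell, such as CDK1 and NUSAP1, it lay after the start site (positions 9 and 13). The sites of 5 members that fell, all before the start site, are shown as examples, with the CHR in capitals, 5′ to 3′ on the strand of the gene.
PLK1: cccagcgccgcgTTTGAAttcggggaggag
CCNB2: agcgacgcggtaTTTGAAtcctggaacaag
CDC20: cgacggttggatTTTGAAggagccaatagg
KIF4A: ctccgggacggaTTTGAAacttggcggtta
BUB1B: gggaccgttaaaTTTGAAacttggcggcta
They lie on the plus strand of GRCh38.p14 at chr16:23678848-23678877, chr15:59105105-59105134, chr1:43358904-43358933, chrX:70290058-70290087 and chr15:40161034-40161063, with the first capital at position -29, -29, -65, -34 and -23. The hexamer is short, and the share of all promoters with it is correspondingly high.

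Of 46 replication genes tested 9 rose and 11 fell (median -0.13), against 19.5% and 17.5% of all genes. FEN1, the flap endonuclease of lagging strands, had 92.8, 91.9 and 92.9 RPKM in EGCG+HC cells, against 24.6, 24.5 and 25.3 RPKM in EGCG cells (log2 fold change 1.86 ± 0.020 (SE), adjusted p = 1e-08). PCNA, the sliding clamp, had 321, 322 and 322 RPKM in EGCG+HC cells, against 127, 133 and 140.0 RPKM in EGCG cells (log2 fold change 1.26 ± 0.034 (SE), adjusted p = 1.5e-07). E2F2, an activator of the G1/S genes, had 8.55, 8.56 and 8.87 RPKM in EGCG+HC cells, against 1.85, 1.90 and 1.84 RPKM in EGCG cells (log2 fold change 1.75 ± 0.035 (SE), adjusted p = 5.4e-08). In these 3 genes all EGCG+HC libraries stood at more than 2 times the EGCG level, and in HC cells all 3 were lower than in control cells (log2 fold changes -1.11, -0.75 and -0.66). ORC1, ORC6, CDC6, RFC4, GMNN and CCNE2 rose too, at 1.05, 0.94, 0.69, 0.69, 0.69 and 0.68. The falls were led by GINS4 (-1.21), a helicase subunit, and included RRM2, POLD1 and TK1, of nucleotide supply and DNA synthesis, at -0.997, -0.94 and -0.93. HC alone lowered 14 of 46 and raised 0, against 2.26% and 9.48% of all genes. The difference of the effects was positive for 18 and negative for 9, against 14.5% and 23.1% of all genes. The E2F site TTTNGCGC was found on either strand in 18 of 38 promoters (47.4%), against 2.17% of all symbols. Among members with a promoter sequence it occurred in 4 of 8 that rose and in 2 of 9 that fell, and 4 of these sites are shown with the site or its reverse complement in capitals.
E2F2: cacgacgtttgGCGCTAAAaaaaaaaaaaa
CDC6: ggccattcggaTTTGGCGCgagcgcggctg
POLA2: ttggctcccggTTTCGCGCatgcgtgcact
POLE: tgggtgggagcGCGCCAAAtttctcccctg
E2F2 and CDC6 rose and POLA2 and POLE fell (-0.94 and -0.64). The stretches lie at chr1:23531253-23531282 (minus strand), chr17:40287875-40287904 (plus), chr11:65261898-65261927 (plus) and chr12:132687342-132687371 (minus).

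DNA repair genes had 7 rises and 11 falls among 52 tested (median -0.18), against 19.5% and 17.5% of all genes. ERCC2, a helicase of nucleotide excision repair, averaged 2.06 RPKM in EGCG+HC cells and 7.497 RPKM in EGCG cells (log2 fold change -1.48 ± 0.048 (SE), adjusted p = 2.9e-07). DDB1, a subunit of the complex that binds ultraviolet damage, averaged 17.3 RPKM in EGCG+HC cells and 38.1 RPKM in EGCG cells (log2 fold change -1.10 ± 0.021 (SE), adjusted p = 4.9e-08). LIG4, the ligase of end joining, and XRCC2, of recombination repair, rose, at 1.22 and 0.97. Of growth arrest and p53 target genes 8 of 23 rose and 2 fell (median 0.30). GADD45A, a stress brake on the cell cycle, had 118, 117 and 120.4 RPKM in EGCG+HC cells, against 27.2, 29.6 and 27.7 RPKM in EGCG cells (log2 fold change 2.03 ± 0.033 (SE), adjusted p = 3e-08), and its relative GADD45B a log2 fold change of 1.22. CDKN1A, the inhibitor p21, had 28.7, 27.6 and 28.1 RPKM in EGCG+HC cells, against 21.8, 21.3 and 21.4 RPKM in EGCG cells. The EGCG+HC libraries were all higher, but by less than the limit (log2 fold change 0.37 ± 0.023 (SE), adjusted p = 5.6e-06), and p21 passed it at 0.676 once values were centred by GC content. C12orf5 (TIGAR) and MDM4 rose (1.21 and 1.17), and TP53I3 and CCNG1 fell (-1.10 and -1.07).

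Apoptosis regulators were near the background, with 6 of 30 higher and 4 lower (median -0.10, or 0.02 with GC centring). TNFRSF10D, which binds the death ligand TRAIL without passing on its signal, had 45.7, 43.6 and 43.1 RPKM in EGCG+HC cells, against 5.45, 5.98 and 5.57 RPKM in EGCG cells (log2 fold change 2.76 ± 0.039 (SE), adjusted p = 2.4e-08). XIAP, a caspase inhibitor, averaged 20.1 ± 0.585 RPKM in EGCG+HC cells and 8.45 ± 0.288 RPKM in EGCG cells (SD, n = 3 each), and PMAIP1 (NOXA) and BCL2L11 (BIM), which promote death, had log2 fold changes of 1.07 and 0.86. CASP6, ENDOG, FAS and BAX were the falls, at -1.29, -1.26, -0.78 and -0.68. CASP2 and BIRC3 completed the rises (0.59 and 0.78), which thus took in both promoters and inhibitors of death. Histone genes rose in 9 of 20 tested members and fell in 1, H1FX (-1.30). HIST1H2BK led them, with 46.0, 46.5 and 44.7 RPKM in EGCG+HC cells, against 10.6, 13.9 and 13.8 RPKM in EGCG cells (log2 fold change 1.77 ± 0.093 (SE), adjusted p = 2.5e-06), followed by HIST1H2BD and HIST1H4H (1.46 and 1.42). Most histone messages lack a poly(A) tail, on which the library kit selects, and gene copies share sequence.

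Cytoskeletal genes fell. In the actin and contraction list 21 of 36 were lower and 1, MYL12A, higher (1.65), with a median of -0.70. CAV1, the coat protein of caveolae, had 104, 105 and 104 RPKM in EGCG+HC cells, against 346, 343 and 349.8 RPKM in EGCG cells (log2 fold change -1.72 ± 0.016 (SE), adjusted p = 7.8e-09). ACTB, often used as a constant reference, had 479.7, 461 and 451 RPKM in EGCG+HC cells, against 1011, 1044 and 978 RPKM in EGCG cells, so that it was more than 2 times lower in EGCG+HC cells (log2 fold change -1.12 ± 0.032 (SE), adjusted p = 1.9e-07). CNN1, a calponin of contractile cells, had 0.409, 0.481 and 0.251 RPKM in EGCG+HC cells, against 7.51, 8.51 and 7.55 RPKM in EGCG cells. Of 10 tubulins 6 fell and 0 rose (median -0.825). TUBA1A had 10.6, 10.7 and 11.2 RPKM in EGCG+HC cells, against 49.9, 48.6 and 50.04 RPKM in EGCG cells (log2 fold change -2.10 ± 0.027 (SE), adjusted p = 1.7e-08), and TUBB6, TUBB4B and TUBG1 had -1.26, -1.02 and -0.95. Actin and tubulin copies share sequence, so that reads of close copies are uncertain. Among targets of YAP and TEAD, factors that respond to cell tension, 12 of 21 fell and 3 rose (median -0.59). After GC centring 8 of 19 fell and 2 rose (median -0.39). F3, the tissue factor that starts coagulation, had 22.3, 20.9 and 20.6 RPKM in EGCG+HC cells, against 125, 124 and 122 RPKM in EGCG cells (log2 fold change -2.48 ± 0.031 (SE), adjusted p = 1.6e-08), while cells without EGCG averaged 328 RPKM in HC cells and 356 RPKM in control cells. CYR61 (CCN1) averaged 23.0 ± 0.973 RPKM in EGCG+HC cells and 77.4 ± 0.520 RPKM in EGCG cells (SD, n = 3 each), and AXL, a receptor kinase, had a log2 fold change of -1.47. The rises were ANKRD1, NT5E and LATS2, at 0.59, 0.60 and 0.92, and only 1 member rose when mitochondrial genes were left out of the scaling.

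Of TGF-beta, BMP and ID genes 8 of 26 fell and 2 rose, SMAD4 and BMP2 (0.80 and 0.76), with 7 and 6 after GC centring. The counts of this and the next 3 lists stand against 17.5% falls and 19.5% rises among all genes. After TGFB2, SMAD3, which relays the TGF-beta signal, had 7.21, 7.26 and 7.26 RPKM in EGCG+HC cells, against 21.7, 21.8 and 20.9 RPKM in EGCG cells (log2 fold change -1.45 ± 0.026 (SE), adjusted p = 4.4e-08). FST, which binds activin, and ID3, an inhibitor of differentiation, had -1.39 and -1.22. Receptor kinases and their ligands fell in 10 of 22 members and rose in 1 (median -0.50), with 10 and 4 after GC centring. PDGFRB, the PDGF receptor beta, had 4.67, 4.38 and 4.28 RPKM in EGCG+HC cells, against 19.1, 19.5 and 19.1 RPKM in EGCG cells (log2 fold change -1.90 ± 0.035 (SE), adjusted p = 4.7e-08), with its ligand gene PDGFB at -1.74. IGFBP5, an IGF binding protein, averaged 28.5 ± 0.531 RPKM in EGCG+HC cells and 100.1 ± 0.795 RPKM in EGCG cells (SD, n = 3 each), and EGFR, MET and ERBB2 had -0.96, -0.91 and -0.85. EREG, an EGF family ligand, was the rise, at 29.3, 31.1 and 30.7 RPKM in EGCG+HC cells, against 9.67, 9.83 and 9.67 RPKM in EGCG cells (log2 fold change 1.55 ± 0.028 (SE), adjusted p = 4.5e-08). In the list of matrix, proteases and integrins 11 of 38 fell and 3 rose, with 8 and 8 after GC centring. TIMP3, an inhibitor of metalloproteases, had a log2 fold change of -2.18 and LOX, which crosslinks collagen, -1.03. PLAU, the urokinase, rose to 61.6, 59.5 and 61.7 RPKM in EGCG+HC cells, against 12.7, 12.4 and 12.6 RPKM in EGCG cells (log2 fold change 2.19 ± 0.023 (SE), adjusted p = 1e-08), and MMP1, the interstitial collagenase, and SERPINE2, a protease inhibitor, had 2.13 and 0.63. Of axon guidance genes 9 of 28 fell and 1, SEMA4D, rose (0.89), led by PLXNB2, SEMA3C and NRP1 (-0.95, -0.92 and -0.89). Their transcripts are GC-rich (median 57.8%), and after GC centring 3 of 28 fell and 3 rose.

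In metabolism, glycolytic genes fell in 9 of 24 members and rose in 2, against 17.5% and 19.5% of all genes. The rises were SLC16A1 and SLC2A3 (0.72 and 0.74), and the median was -0.40. After GC centring 5 fell and 2 rose. PFKFB4, which sets the fructose bisphosphate signal, had 10.3, 9.68 and 9.62 RPKM in EGCG+HC cells, against 35.2, 35.7 and 35.4 RPKM in EGCG cells (log2 fold change -1.75 ± 0.030 (SE), adjusted p = 3.6e-08). ALDOC, an aldolase, had 71.4, 66.9 and 68.0 RPKM in EGCG+HC cells, against 189, 189 and 186 RPKM in EGCG cells (log2 fold change -1.44 ± 0.027 (SE), adjusted p = 4.8e-08). HK1 and PFKP had -1.48 and -1.28, while LDHA, GAPDH and PKM stayed within the limit, at -0.50, -0.18 and -0.18. Of hypoxia genes and mTOR brakes 6 of 25 fell and 3 rose, against 17.5% and 19.5% of all genes. After GC centring 6 fell and 5 rose. The rises before centring were SESN2, SESN1 (0.67) and ANKRD37 (0.64). MTOR, which the list holds as the kinase itself and not as a brake, stood at -1.12 and P4HA2, a collagen hydroxylase, at -1.06. Nuclear genes of oxidative phosphorylation hardly moved, with 1 of 38 higher and 2 lower, with UQCRH at 0.62 and SDHA at -0.76, and UQCRH was under the threshold with quantile normalization (0.371).

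The mitochondrial genome showed a contrast between its rRNA and its messages. MT-RNR2, the large rRNA, had 2667, 2739 and 2834 RPKM in EGCG+HC cells, against 519.5, 521 and 520.4 RPKM in EGCG cells. Every EGCG+HC library was about 5 times the EGCG level (log2 fold change 2.40 ± 0.024 (SE), adjusted p = 1e-08). MT-RNR1, the small rRNA, had 372, 379 and 379.8 RPKM in EGCG+HC cells, against 179, 182 and 185 RPKM in EGCG cells (log2 fold change 1.04 ± 0.019 (SE), adjusted p = 4.3e-08). Of 13 protein-coding genes only MT-ND1, a subunit of complex I, passed, at 0.74, and the median of 0.19 turned to -0.07 with quantile normalization.

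Ribosomal protein genes had a median of 0.36, with 45 of 47 positive, none past the limit on the fold and 15 past it after GC centring. The proteasome had 2 rises and 3 falls among 30 members, PSMD12 and PSMD7 (0.66 and 0.59) against PSME4, PSMD4 and PSMB3 (-0.74, -0.72 and -0.66). Autophagy and lysosome genes had 3 rises and 5 falls among 37. In both lists the shares are under the 19.5% rises and 17.5% falls of all genes. CTSZ, a cathepsin, had 4.90, 4.03 and 4.01 RPKM in EGCG+HC cells, against 0.188, 0.378 and 0.503 RPKM in EGCG cells (log2 fold change 1.97 ± 0.11 (SE), adjusted p = 2.9e-06), and MAP1LC3B and UVRAG were the other rises (0.73 and 0.66). MITF, a factor of lysosomal genes, ATG9A, MAP1LC3A and OPTN were among the falls (-1.16, -1.10, -0.81 and -0.66).

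Of 20 long noncoding RNAs 13 rose and 1 fell (median 0.68). MIR22HG, the host of miR-22, had 96.4, 96.1 and 96.2 RPKM in EGCG+HC cells, against 19.7, 19.1 and 19.9 RPKM in EGCG cells (log2 fold change 2.24 ± 0.020 (SE), adjusted p = 7.8e-09). The snoRNA hosts SNHG3 and SNHG15 and the noncoding FTX had 1.56, 1.46 and 1.36. NEAT1, the scaffold of paraspeckles, was the fall, with 37.5, 40.2 and 36.2 RPKM in EGCG+HC cells, against 77.5, 78.8 and 81.3 RPKM in EGCG cells (log2 fold change -1.04 ± 0.040 (SE), adjusted p = 5.6e-07). All its EGCG+HC libraries were about 2 times below the EGCG libraries, and the cells without EGCG held far more, 279 RPKM in HC cells and 228 RPKM in control cells. Of splicing factors 8 of 35 rose and 5 fell, near the 19.5% and 17.5% of all genes. CLK1, a kinase of SR proteins, TRA2A and TRA2B had 1.36, 1.28 and 1.02, and the falls SRSF1, SF3B3, PTBP1, SF3A1 and HNRNPU had -0.98, -0.93, -0.79, -0.73 and -0.59. CLK1 stood at 19.7, 18.9 and 20.8 RPKM in EGCG+HC cells, against 7.32, 6.72 and 7.23 RPKM in EGCG cells, with no overlap.

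Genes with clone names, pseudogenes and small RNA names were counted apart. Of 2396 such names tested, 923 (38.5%) were higher and 180 (7.51%) lower in EGCG+HC cells, with a median of 0.40, while of the 11374 other genes 1764 (15.5%) were higher and 2230 (19.6%) lower, with a median of -0.082. They took 8.58 ± 0.103% of the RPKM in EGCG+HC libraries and 6.31 ± 0.009% in EGCG libraries (SD, n = 3 each). The largest were RP11-84A19.4, with 50.6, 49.1 and 68.0 RPKM in EGCG+HC cells, against 1.17, 3.32 and 1.25 RPKM in EGCG cells, AC005682.6, RP3-438O4.4 and RP11-12M5.4, with log2 fold changes of 4.35, 3.75, 3.67 and 3.59. These are names from the files, to which no role is given here. The filter, a mean of 1 RPKM over both groups, lets names near the floor enter through the group where they are high. Over all genes 57.3% of those past the threshold were higher with no filter, 52.7% with this filter and 46.2% with one at 10 RPKM. The part of the filter in the split by kind of name was not tested. A further 3146 names appear in the EGCG+HC table and not in the EGCG table and were not tested.

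GC content moved with the change. Protein-coding genes were split into 4 groups of 2564 by the GC content of their longest transcript. The group lowest in GC (29.2 to 41.4%) had 492 rises and 294 falls, and the group highest in GC (55.9 to 74.8%) 224 rises and 783 falls. The median log2 fold change was 0.054 in the lowest and -0.288 in the highest. By transcript length the medians were -0.052 in the shortest and -0.131 in the longest of 4 groups. After centring by GC content, an alternative added after seeing the data, 3630 of 10869 genes passed, 2078 higher and 1552 lower, and 3053 of the 3827 genes called before and still tested were called again. Mitosis then had 43 falls of 46 tested, sterol synthesis 23 of 32, actin 16 of 35, the integrated stress response 14 rises of 24 and immediate early genes 21 of 30. The cause of the association with GC content was not tested.

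**Figure D4:**
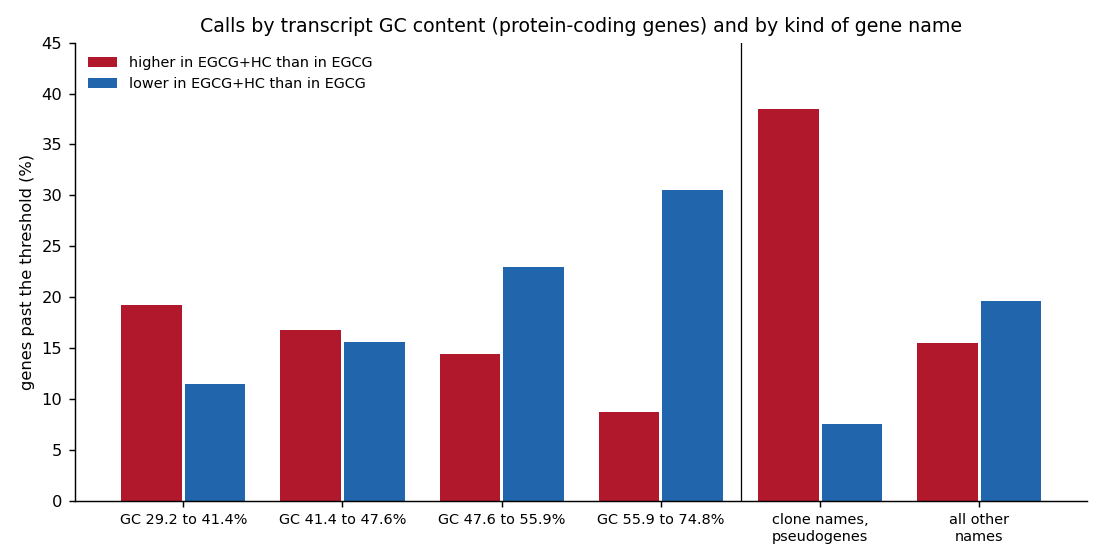
Percent of genes past the threshold that were higher (red) or lower (blue) in EGCG+HC than in EGCG cells, by 4 groups of transcript GC content among protein-coding genes (left of the line) and by kind of gene name (right). Falls take 11.5% of the group lowest and 30.5% of the group highest in GC, and rises take 38.5% of clone names and pseudogenes, against 15.5% of all other names.

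HC without EGCG moved fewer genes past the threshold. In HC against control cells, libraries that the comparison above does not use, 1571 of 13392 genes (11.7%) passed, 1269 (9.48%) higher and 302 (2.26%) lower. The split depends on the scaling, with 822 higher and 483 lower after quantile normalization and 670 higher and 419 lower after GC centring, and the median of all genes went with it, at 0.096 as deposited, -0.033 with quantile normalization and -0.017 with GC centring. Of 12717 genes tested in both comparisons 669 were called in both, of which 333 were higher and 116 lower in both, 189 were lower with EGCG and higher without, and 31 were higher with EGCG and lower without. The effect of HC with EGCG minus its effect without, tested directly on 12 libraries, passed the threshold for 5147 of 13686 genes (37.6%), 1988 (14.5%) positive and 3159 (23.1%) negative. After GC centring 2073 were positive and 1749 negative, and the median of all genes was 0.027, against -0.126 as deposited.

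By list, the difference ran in both directions, against 14.5% positive and 23.1% negative of all genes. Of all genes 9.48% rose with HC alone and 19.5% with HC added to EGCG. The effects start from different levels, so a smaller effect is not a lower level. As examples, CTH averaged 7.46 RPKM in control, 23.0 in EGCG, 26.0 in HC and 71.7 RPKM in EGCG+HC cells. ATF4 averaged 139, 241, 226 and 399 RPKM in the same order. Levels of EGCG and control cells were not compared by list. Amino acid supply rose in 16 of 29 members with HC alone and in 5 with HC added to EGCG, and the difference was negative for 11 and positive for 0. The integrated stress response rose in 19 of 25 with HC alone and in 11 with EGCG present, with the difference negative for 11 and positive for 5, and NRF2 targets rose in 18 of 34 and in 7, with 16 negative and 4 positive. Hypoxia genes and mTOR brakes rose in 13 of 25 with HC alone, and the difference was negative for 14 and positive for 1. ER chaperones rose in 18 of 34 with HC alone, while the difference was negative for 6 and positive for 2 (3 and 3 after GC centring), shares under those of all genes. The leading stress genes were exceptions, since HMOX1, DDIT3 and HSPA5 rose with HC alone (1.58, 1.30 and 0.98) and more with EGCG present (differences of 1.94, 1.29 and 0.93). DNAJB9 rose by 2.05 with HC alone and 2.05 with EGCG present, a difference of 0.0026 ± 0.051 (SE). In the other direction, splicing factors had 8 falls among 35 with HC alone, against 2.26% of all genes. For them the difference was positive for 13 and negative for 0. Ribosomal proteins were positive for 34 of 47, a count that dropped to 5 with quantile normalization.

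**Figure D5:**
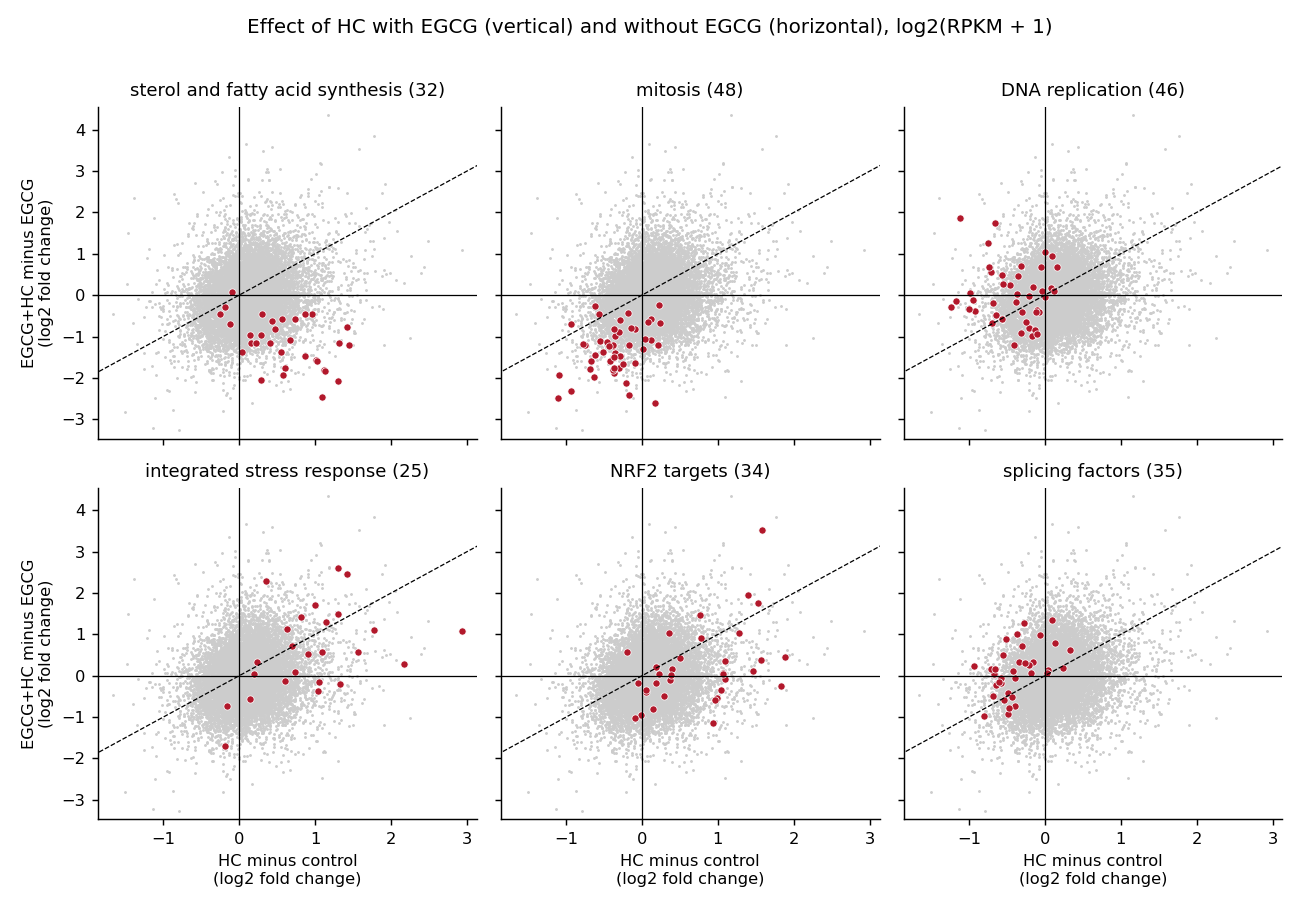
Log2 fold changes of EGCG+HC minus EGCG (vertical) against HC minus control (horizontal) on the log2(RPKM + 1) scale, for all genes tested in both (grey) and the members of 6 lists (red, number in brackets), with a dashed line of equal effects. Most sterol genes lie in the lower right field, the mitotic genes lie below 0 and most of them below the line, and FEN1, PCNA and E2F2 stand in the upper left of the replication panel.

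Leaving out clone names, the single genes with the most extreme differences beside the sterol genes are LOX, F2RL2 and POLD4, a subunit of DNA polymerase delta (-2.94 ± 0.22), on the negative side. LOX had 14.8, 16.1 and 16.7 RPKM in EGCG+HC cells, against 34.0, 33.3 and 32.7 RPKM in EGCG cells. In the other pair it had 31.2, 30.7 and 30.8 RPKM in HC cells, against 5.70, 5.69 and 5.67 RPKM in control cells, so HC alone raised it in every library while HC on top of EGCG lowered it. F2RL2, a thrombin receptor, showed the same, with 7.80, 7.28 and 7.99 RPKM in EGCG+HC cells, against 19.2, 17.9 and 19.5 RPKM in EGCG cells, and 31.7, 32.9 and 33.4 RPKM in HC cells, against 6.92, 8.48 and 8.73 RPKM in control cells. The positive side holds C15orf60, PLA2G10, RPL17-C18orf32, ZRANB2-AS1, TNFRSF10D and RBM14. RBM14, a nuclear RNA-binding protein, had 21.8, 19.01 and 18.7 RPKM in EGCG+HC cells, against 3.14, 3.63 and 2.59 RPKM in EGCG cells. Without EGCG it had 4.55, 4.23 and 4.86 RPKM in HC cells, against 14.3, 12.9 and 13.3 RPKM in control cells, the opposite order of the groups. Its locus overlaps readthrough transcripts, so its reads are uncertain. TNFRSF10D had 7.14, 7.65 and 7.59 RPKM in HC cells, against 9.51, 9.42 and 9.62 RPKM in control cells, close together, while EGCG+HC cells held several times the EGCG level.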

How the data were processed

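RNA of LN18 cells was sequenced from TruSeq v2 poly(A) libraries, 3 for each of EGCG+HC, EGCG, HC and control at 24 h. The authors trimmed the paired reads, aligned them to GRCh37 (hg19) and obtained RPKM per gene in CLC Genomics Workbench, and the submitters' processing notes add FastQC. Which annotation was used and how reads were assigned is not given in the sources used here. Values in RPKM, as deposited, were joined by gene symbol, leaving out 25 or 26 names a library that a spreadsheet had turned into dates. No strand is kept, so overlapping, antisense and near-identical genes are uncertain. Columns of the 1321N1 line were not used.

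Values were fitted as log2(RPKM + 1) in genes averaging 1 RPKM or more, using limma 3.58.1 (R 4.3.3), without weights for depth, with 6 libraries for each pairwise comparison and 12 for the difference of the effects of HC. Genes were called at 1.5-fold or more with a p, adjusted after Benjamini and Hochberg, not above 0.05, and every adjusted p in the text is from limma. Replicates are numbered in the sample titles, which do not say whether they are separate treatments, and p-values measure the spread between them. Depth was estimated from single-exon genes of GENCODE 44, where 86.8 to 93.2% of low values came within 0.1 of a whole number of reads. Of 29449 symbols 19470 matched that annotation. Tables were handled in Python 3.11.15 with numpy 2.4.6 and pandas 2.3.3, and the fits were checked on simulated data.

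The comparison, its gene lists and the promoter motifs were chosen with earlier results of these data known. Named genes are the 12 largest rises and falls that reached 10 RPKM without overlap, up to 4 called members of each list, the 6 most positive and 6 most negative differences of the effects of HC, 4 clone names and 14 anchor genes such as ATF4 and ACTB. Others serve as examples of a list and were chosen after their values were seen. Some members that the rule names are not reported here. Alternatives were another pseudocount (0.1 RPKM), no filter or a filter at 10 RPKM, quantile normalization, rescaling without mitochondrial genes, no limit on the fold, Bonferroni adjustment, a replicate block, a fit on all 12 LN18 libraries and leaving out each library. Centring within 10 bins of GC content was added after seeing the data. Promoter sequences come from RefSeq (GRCh38.p14), a later build than that of the values.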

Additional observations from a re-analysis of the deposited data

Results flagged for a closer look

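The effect of HC depended on whether EGCG was present for 5147 genes, by a direct test of the difference between both effects on the 12 LN18 libraries, in which 9961 genes had an adjusted p of at most 0.05 at any fold. The 12 genes below have the most extreme differences among genes that reached 10 RPKM in 1 of the 4 groups, leaving out clone names and pseudogenes and genes whose EGCG+HC and EGCG libraries overlapped. The difference was -3.57 for HMGCS1, -3.36 for INSIG1 and -2.98 for STARD4, all of sterol supply, and -3.28 for LOX, -3.10 for F2RL2 and -2.94 for POLD4. In HMGCS1, INSIG1, STARD4, LOX, F2RL2 and POLD4 HC lowered the level in cells given EGCG and raised it in cells without EGCG. The other 6 had positive differences, 3.73 for RBM14, 3.28 for C15orf60, 3.20 for RPL17-C18orf32, 3.16 for PLA2G10, 3.07 for TNFRSF10D and 3.07 for ZRANB2-AS1. C15orf60 averaged 12.4 RPKM in EGCG+HC cells and 0.582 RPKM in EGCG cells, with 0.103 RPKM in HC cells and 0.261 RPKM in control cells, and PLA2G10 averaged 11.8 RPKM in EGCG+HC cells and 0.490 RPKM in EGCG cells, with 0.0333 RPKM in HC cells and 0.0813 RPKM in control cells, so both were well above 1 RPKM in EGCG+HC cells alone. The cause of these differences was not tested.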

How the results depend on the processing

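The count of genes past the threshold moved by over 1.5 times where a limit was changed. With a mean of at least 10 RPKM it was 1780 for EGCG+HC against EGCG, 589 for HC against control and 1928 for the difference of the effects, over fewer genes tested. With no limit on the fold it was 11335, 7420 and 9961 in the same order, and with Bonferroni adjustment 629 for HC against control. Leaving out 1 library gave 4987 to 5181, 1538 to 1657 and 5058 to 5236. With a replicate block the counts were 5099, 1586 and 5154. Same-numbered EGCG+HC and EGCG libraries deviated from their group means with correlations of -0.0111, -0.048 and 0.0303. Not every library correlated best with its own number. These values show no shared deviation by number, but cannot tell whether same-numbered treatments were run side by side. Over 157 values of named genes and 2512 alternatives, 2496 kept their direction and side of the threshold, 14 lost it, 2 passed it newly and 0 reversed. Those lost were ATF4, UQCRH and MT2A under another scaling, MAP1LC3A, PSMB3, PSMD12, PSMD4 and SLC7A1 after GC centring, and CYP1A1, EEF1E1-BLOC1S5, FAM209A, HIST1H4H and RPL17-C18orf32 with Bonferroni adjustment. CDKN1A passed with no limit on the fold and after GC centring. Most named genes were chosen for large changes past the threshold, so few of them could lose it, and their counts do not stand for all calls. By quantile normalization 4761 of all 5097 calls remained, and after GC centring 3053 of the 3827 still tested.

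The limits are those of the material. Each group is 3 libraries of 1 line at 1 dose and 1 time, so the narrow spread says nothing of other lines, doses or times. HC and its ethanol cannot be told apart between EGCG+HC and EGCG cells. RPKM are relative to the library, and the GC content of transcripts moves with the change. Without counts, depth enters only as an estimate, and genes near 1 RPKM are measured from few reads. The 3146 names listed only for EGCG+HC cells were not compared.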

Other observations

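PRSS23, a secreted protease, averaged 11.9 RPKM in EGCG+HC cells and 62.7 RPKM in EGCG cells, with every EGCG+HC library below every EGCG library. The keratins of simple epithelia averaged 23.4 RPKM in EGCG+HC cells and 45.8 RPKM in EGCG cells for KRT8 and 34.0 RPKM in EGCG+HC cells and 78.1 RPKM in EGCG cells for KRT18. Several readthrough names rose that join exons of neighbouring genes, with EEF1E1-BLOC1S5 at 24.3 RPKM in EGCG+HC cells and 2.80 RPKM in EGCG cells and RPL17-C18orf32 at 25.7 RPKM in EGCG+HC cells and 2.42 RPKM in EGCG cells. In HC against control cells, clone names, pseudogenes and small RNAs were higher for 285 and lower for 48 of 1858 tested (median 0.20), and other genes for 881 and 238 of 10859 (median 0.073).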
